A study of Sus scrofa with 6 samples.

Results

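ANKRD37, KDM3A, BNIP3, PDK1, VEGFA, ADM, LDHA, PGK1, SLC2A1 and EGLN3 were chosen by symbol as 10 genes of the response to low oxygen and of glycolysis. Of these, 9 were among the 30477 genes of the count matrices, and SLC2A1 was not analysed here. The genes were followed in porcine midbrain-like organoids (pMLOs) grown from a single line of pig embryonic stem cells, named IVF_1_ pESC_FIW in the labels, with no genetic change stated. Sampling took place at 11, 28 and 45 days of culture (written D11, D28 and D45), each time with 2 single-cell libraries, replicates A and B. All groups shared the same culture, which began with embryoid bodies in SB431542, Noggin, SHH-C24II and CHIR99021, went on with FGF8, BDNF and ascorbic acid, then with Matrigel, and ended on an orbital shaker with BDNF, GDNF, ascorbic acid, db-cAMP and DAPT. The last of these media was in use at both D28 and D45, after embedding in Matrigel, so these days differed in age within 1 medium, whereas D11 differed from both in medium as well as in age, and there the effects of age and medium cannot be told apart. No group was kept at a changed oxygen level, and oxygen was not among the measurements analysed here.

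When oxygen is plentiful, prolyl hydroxylases mark the alpha subunits of the hypoxia-inducible factors (HIFs), and the VHL ligase complex then sends them for degradation. When oxygen is scarce the alpha subunits persist, pair with ARNT and bind hypoxia response elements near their target genes. The targets shift cells from respiration to glycolysis, remove mitochondria and call for new vessels, and they include the hydroxylase EGLN3, which feeds back on the HIFs. Organoids have no blood supply, so oxygen reaches their inner cells by diffusion alone.

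The hypoxia response element has the core RCGTG, and both of its forms, ACGTG and GCGTG, were searched on both strands from 250 bases before to 50 bases after the annotated start of each gene (RefSeq, Sscrofa11.1). Matches that overlapped were counted separately. Of 19569 promoters of this length 49.5% held at least 1 match, 24.0% held at least 2 and 22.2% held ACGTG. Among the 9 measured genes, 6 held at least 1 match, 4 held at least 2 and 4 held ACGTG. BNIP3 held 8 matches, ANKRD37 held 6, PGK1 held 4, PDK1 held 2, and ADM and KDM3A held 1 each, whereas these letters were not found in the windows of EGLN3, LDHA and VEGFA. The start was taken as the outer end of the gene record, and other start sites of the same gene were not searched. The 250 bases before the start are shown 5′ to 3′ in the direction of the gene for the 3 genes with the most matches and for ADM, the gene called most often between days, with the matches on either strand in capitals. PGK1 (chrX:62187222-62187471, plus strand), ANKRD37 (chr15:46445539-46445788, plus strand), BNIP3 (chr14:140371952-140372201, minus strand) and ADM (chr2:49231522-49231771, minus strand) read as follows.
PGK1: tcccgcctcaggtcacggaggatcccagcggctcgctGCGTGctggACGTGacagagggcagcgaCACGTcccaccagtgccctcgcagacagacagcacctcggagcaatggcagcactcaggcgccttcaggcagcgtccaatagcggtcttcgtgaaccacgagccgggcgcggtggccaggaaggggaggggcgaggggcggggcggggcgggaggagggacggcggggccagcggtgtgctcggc
ANKRD37: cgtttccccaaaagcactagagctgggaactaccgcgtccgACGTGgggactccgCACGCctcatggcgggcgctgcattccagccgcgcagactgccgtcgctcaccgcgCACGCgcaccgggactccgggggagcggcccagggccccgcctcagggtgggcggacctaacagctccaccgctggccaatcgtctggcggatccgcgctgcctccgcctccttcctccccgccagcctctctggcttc
BNIP3: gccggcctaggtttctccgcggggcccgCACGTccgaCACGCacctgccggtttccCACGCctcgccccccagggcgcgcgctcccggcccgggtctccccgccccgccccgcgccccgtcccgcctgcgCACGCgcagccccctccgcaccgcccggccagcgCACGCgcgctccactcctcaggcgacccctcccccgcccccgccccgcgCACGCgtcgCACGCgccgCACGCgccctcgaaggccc
ADM: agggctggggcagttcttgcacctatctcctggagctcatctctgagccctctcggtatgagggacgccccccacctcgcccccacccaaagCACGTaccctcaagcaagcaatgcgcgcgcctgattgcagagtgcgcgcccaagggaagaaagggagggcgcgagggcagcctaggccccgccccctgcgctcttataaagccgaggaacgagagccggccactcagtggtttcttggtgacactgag
The nearest capitals to the start lay 19 bases before it in BNIP3 and 139 bases before it in ANKRD37, where 3 further matches followed between base 8 and base 28 after the start. In PGK1 the 3 upstream matches lay between 213 and 185 bases before the start, and in ADM the single match lay 158 bases before it. A match is a description of the letters, not a measured binding site.

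After filtering, 102940 of 104820 cells remained, with 13870 to 21553 cells and 106805311 to 180034791 unique molecular identifiers (UMIs, each standing for 1 captured mRNA molecule) per library. The D11 libraries had a median depth of 10757 and 8845 UMIs per cell, and the D45 libraries of 2300.5 and 4341, with D28 in between at 5505 and 8130. The libraries shared 54 to 111 cell barcodes per pair, at most 0.637% of the smaller library. The labelled cell type was midbrain dopaminergic neurons, and the summed level of TH, NR4A2, DDC, SLC18A2 and SLC6A3 lay between 81.3 and 205 CPM (UMIs of a gene per 1000000 UMIs of the summed cells) in the 6 libraries. The D28 libraries differed from each other: the summed level of 7 genes that dissociation and activity induce, among them FOS, JUN and EGR1, was 1139 CPM in D28 replicate A and 620 in D28 replicate B, against 250 and 263 on D11. Fibroblast markers summed to 1306 and 399 CPM in the same D28 libraries.

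Cells were also grouped by 1 marker each: STMN2, a tubulin-binding protein of young neurons, AQP4, the water channel of astrocytes, CORIN, a floor plate protease, and COL1A1, a fibrillar collagen of mesenchymal cells. A cell was assigned to a group when it had at least 1 UMI of that marker and none of the other 3. This gave 43645 STMN2-positive, 12695 CORIN-positive, 2142 COL1A1-positive and 999 AQP4-positive cells. CORIN-positive cells so defined numbered 4461 and 5891 on D11 and 85 and 122 on D45. AQP4-positive cells so defined reached 20 per library only on D45, with 422 and 551. The exclusion removed many cells. With cells of other markers admitted, CORIN-positive cells numbered 5570 and 8238 on D11 and 535 and 892 on D45. Counted that way, AQP4-positive cells numbered 127 and 63 on D28 and 1756 and 2285 on D45, and COL1A1-positive cells 1252 and 3400 on D45. The groups are defined by 1 gene and are not pure cell types. On D45 the STMN2-positive cells carried MBP, a myelin gene, at 388 and 315 CPM, close to the 384 and 269 CPM of all cells. On D11 the COL1A1-positive cells had the fibroblast gene DCN at 2.75 and 0 CPM, against 639 and 182 on D28. On D45 the CORIN-positive cells had floor plate markers at a summed 1101 and 995 CPM, against 3497 and 2897 on D11, and oligodendrocyte markers at 1162 and 385. The part of these other cells in the results was not tested. The floor plate list holds CORIN itself, the fibroblast list COL1A1, the neuron list STMN2 and the astrocyte list AQP4. Part of each such sum in the group of its own marker therefore follows from how the group was chosen.

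**Figure D1:**
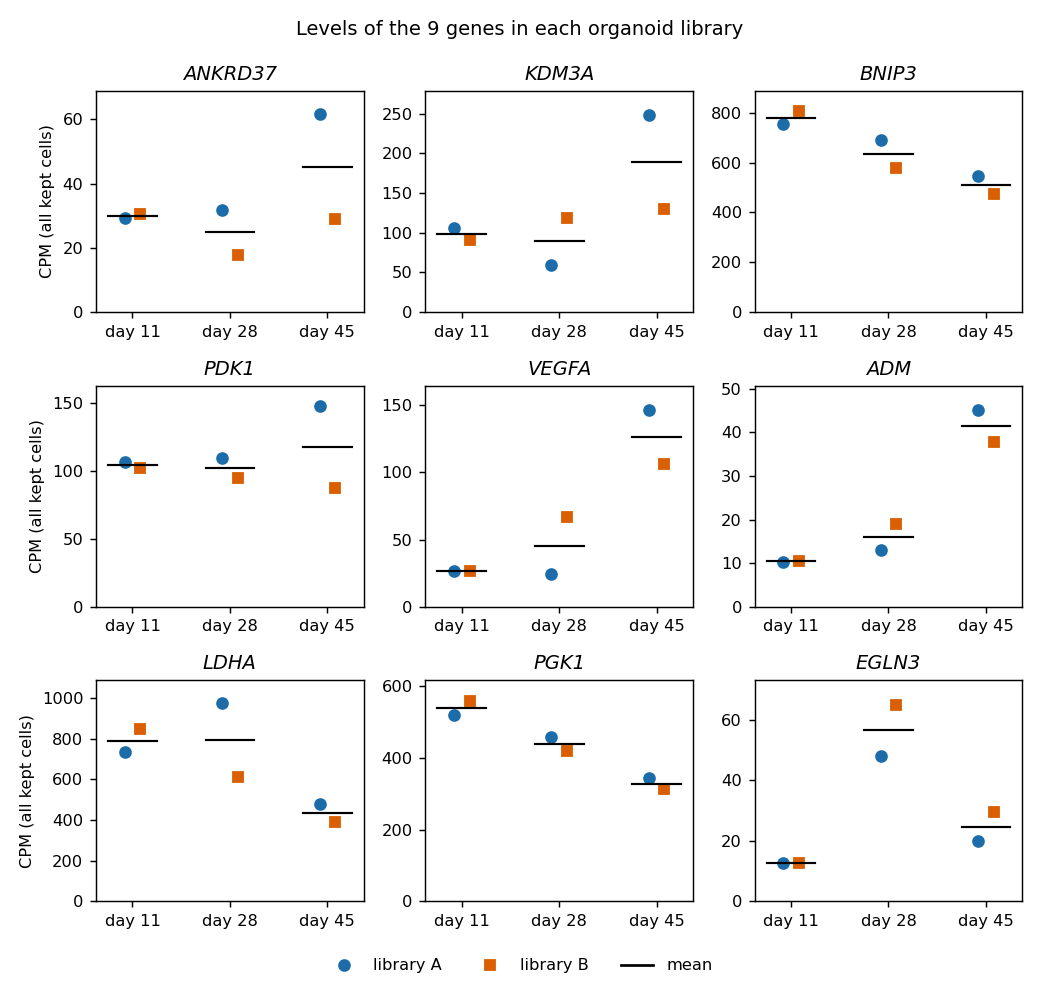
CPM of each of the 9 genes in the sum of all kept cells of each library (y axis) by day of culture (x axis). Circles are replicate A, squares replicate B and bars the mean of both. ADM and VEGFA were highest on D45, EGLN3 on D28, and BNIP3 and PGK1 were lowest on D45.

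VEGFA and ADM encode the secreted factors of the set, the vascular endothelial growth factor and the vasodilator peptide adrenomedullin. In the sum of all cells ADM was at 10.3 and 10.5 CPM on D11 (replicates A and B), 13.0 and 19.0 on D28, and 45.2 and 37.9 at D45, so the libraries of the 3 days did not overlap and rose in the order of age. Levels in CPM are compared within a gene only. Because each value sums over cells, more cells with a transcript and more transcripts per cell cannot be told apart in it.

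The edgeR test placed ADM higher on D45 than on D28 by 1.24 ± 0.18 (log2 fold change ± SE, adjusted p = 0.014) and than on D11 by 1.59 ± 0.18 (adjusted p = 0.0012). VEGFA was at 26.9 and 26.5 CPM on D11, 24.2 and 66.8 on D28, and 146 and 106 at D45. Both D45 libraries exceeded all the others, while D28 replicate A lay at the D11 level and D28 replicate B above it. The change from D11 to D45 was 1.83 ± 0.38 (adjusted p = 0.011), and the change from D28 to D45, at 1.37 ± 0.37, missed the threshold of 0.05 (adjusted p = 0.063). In the same sums the 5 oligodendrocyte genes were at 10.4 and 11.3, 30.6 and 86.5, and 917 and 670 CPM, and 5 astrocyte genes at 40.4 and 36.9, 108 and 106, and 426 and 466. Their part in the rise of ADM and VEGFA was not tested. The comparisons between days share libraries, so they are not independent of each other.

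EGLN3, the HIF prolyl hydroxylase of the set, was highest on D28 in the sum of all cells. Its level was 12.7 CPM in both D11 libraries, 48.0 and 65.0 on D28, and 19.99 and 29.4 at D45, again without overlap between days. It rose by 1.88 ± 0.24 from D11 to D28 (adjusted p = 0.0029) and fell by 1.32 on the log2 scale from D28 to D45 (SE 0.23, adjusted p = 0.023). The second call was lost under 4 of 14 alternatives (values from -1.67 to -1.03). In the same sums 7 floor plate genes were at 2039 and 1911, 852 and 1337, and 252 and 356 CPM. From D28 to D45 EGLN3 went from 97.6 and 134 to 91.8 and 137 CPM in CORIN-positive cells. It went from 23.6 and 23.8 to 13.2 and 18.3 in STMN2-positive and from 17.3 and 36.1 to 56.0 and 30.1 in COL1A1-positive cells. The part of floor plate cells in the changes was not tested.

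LDHA and PGK1, which encode lactate dehydrogenase A and phosphoglycerate kinase, and BNIP3, a receptor that directs mitochondria to autophagy, went the other way from the secreted factors in the sum of all cells. PGK1 was at 520 and 559 CPM on D11, 458 and 420 on D28, and 344 and 312 at D45. BNIP3 was at 756 and 806, then 692 and 580, then 546 and 476 CPM, so for both genes the libraries of the 3 days did not overlap and each later day was lower. Markers of other cells in the same sums were also lower later: 4 mitotic genes summed to 993 and 886 CPM on D11 and 169 and 198 at D45, and 7 floor plate genes to 2039 and 1911 and then 252 and 356. Their part in the levels of the 9 genes was not tested.

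LDHA was at 732 and 849 CPM on D11, 977 and 612 on D28, and 480 and 392 at D45, and the D28 libraries lay on either side of those of D11. From D11 to D45 PGK1 fell by 1.13 (SE 0.22, adjusted p = 0.0081), BNIP3 by 1.02 (SE 0.25, adjusted p = 0.018) and LDHA by 1.27 (SE 0.33, adjusted p = 0.025) on the log2 scale. None of the 3 passed the threshold between neighbouring days.

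ANKRD37, an ankyrin-repeat protein induced by HIF, KDM3A, a histone H3 lysine 9 demethylase, and PDK1, the kinase that blocks pyruvate dehydrogenase, passed no test between days in the sum of all cells. ANKRD37 was at 29.3 and 30.6, 31.7 and 17.9, and 61.5 and 29.0 CPM on the 3 days. KDM3A was at 106 and 91.1, 59.8 and 119, and 249 and 129 CPM. PDK1 was at 107 and 102, 110 and 95.2, and 148 and 87.4 CPM. On D45 replicate A exceeded replicate B in all 3 genes, and replicate B lay within or near the range of the earlier days.

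Counted together, 1 of the 9 genes passed between D11 and D28, where 23.1% of all 22192 genes tested passed, 2 passed between D28 and D45, against 9.40% of genes, and 5 passed between D11 and D45, against 34.6%. The median log2 fold change of the 9 genes was -0.27, 0.03 and 0.17 in the same order, beside 0.03, -0.03 and -0.01 for all genes. These fold changes are relative to the typical gene: scaling by library totals in place of the trimmed mean of M values (TMM) moved the median of all genes up by 0.27, 0.14 and 0.41, and no called gene of the 9 changed direction under it. The falls from D11 to D45 were smaller on that scale, at -0.61 for BNIP3, which lost its call (adjusted p = 0.058), -0.72 for PGK1 (adjusted p = 0.026) and -0.86 for LDHA (adjusted p = 0.0497). The counts depend on single libraries, and so do the shares of all genes called in the same fits. Without D28 replicate A 7 genes passed between D11 and D28 (BNIP3, LDHA, PGK1 and ANKRD37 lower, VEGFA, ADM and EGLN3 higher), beside 31.8% of all genes, and without D28 replicate B 2 passed (EGLN3 higher and KDM3A lower), beside 46.1%. Between D28 and D45 the count was 4 without D28 replicate A (18.2% of genes), 7 without D28 replicate B (43.7%), 1 without either D11 library (2.42% and 2.41%) and 0 without either D45 library (0.00% and 0.280%). Between D11 and D45 it was 1 without either D11 library (13.3% and 12.2%), 1 without D45 replicate A (14.9%) and 2 without D45 replicate B (16.6%).

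**Figure D2:**
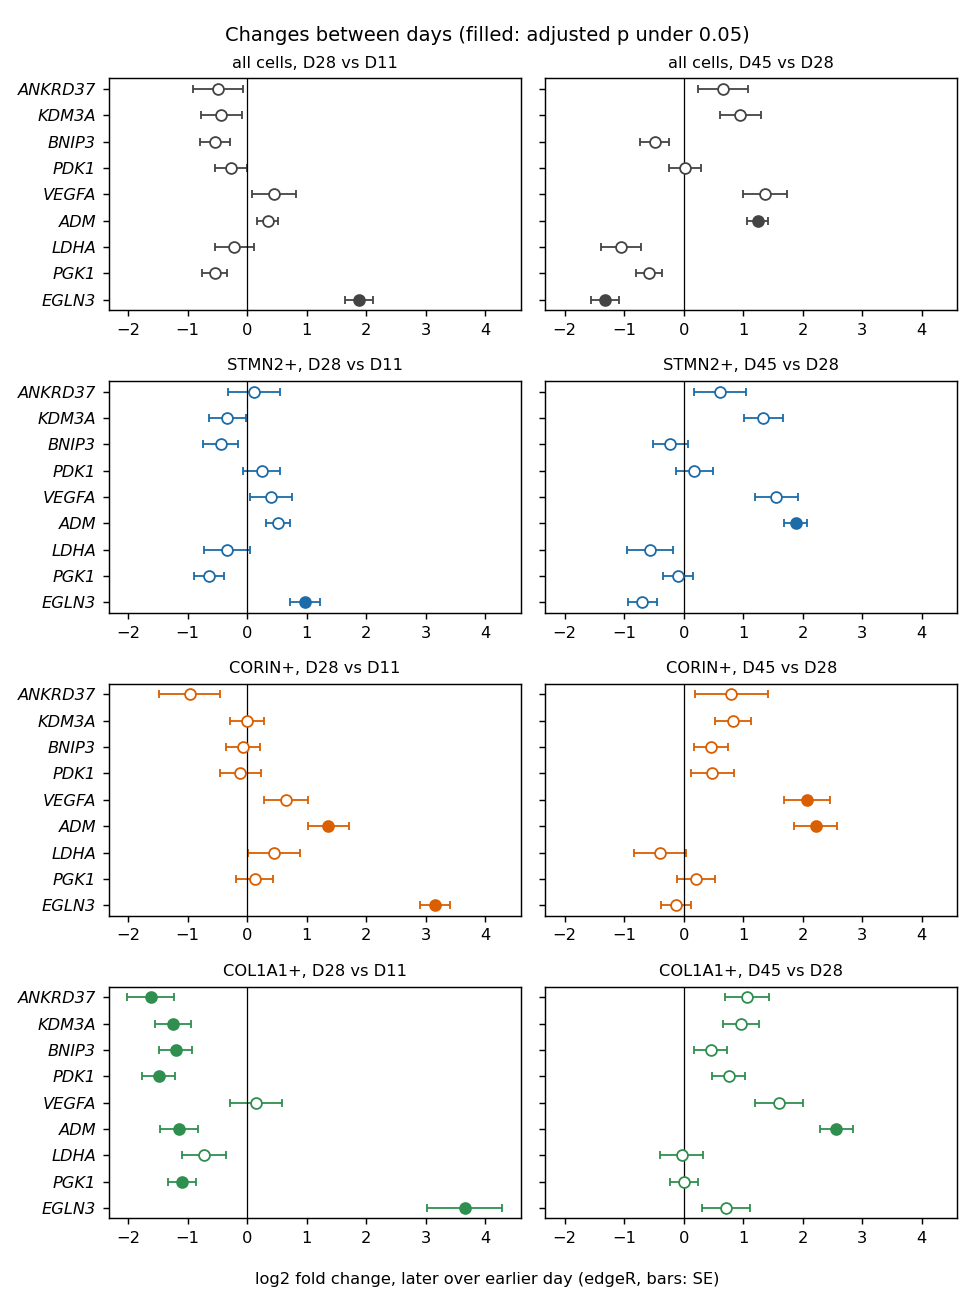
Log2 fold change of each gene from D11 to D28 (left) and from D28 to D45 (right) in all cells and in 3 marker groups (rows), from edgeR, with bars of 1 SE and filled points for an adjusted p under 0.05. ADM was filled in all 4 panels of D45 against D28, and EGLN3 in all 4 panels of D28 against D11.

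**Figure D3:**
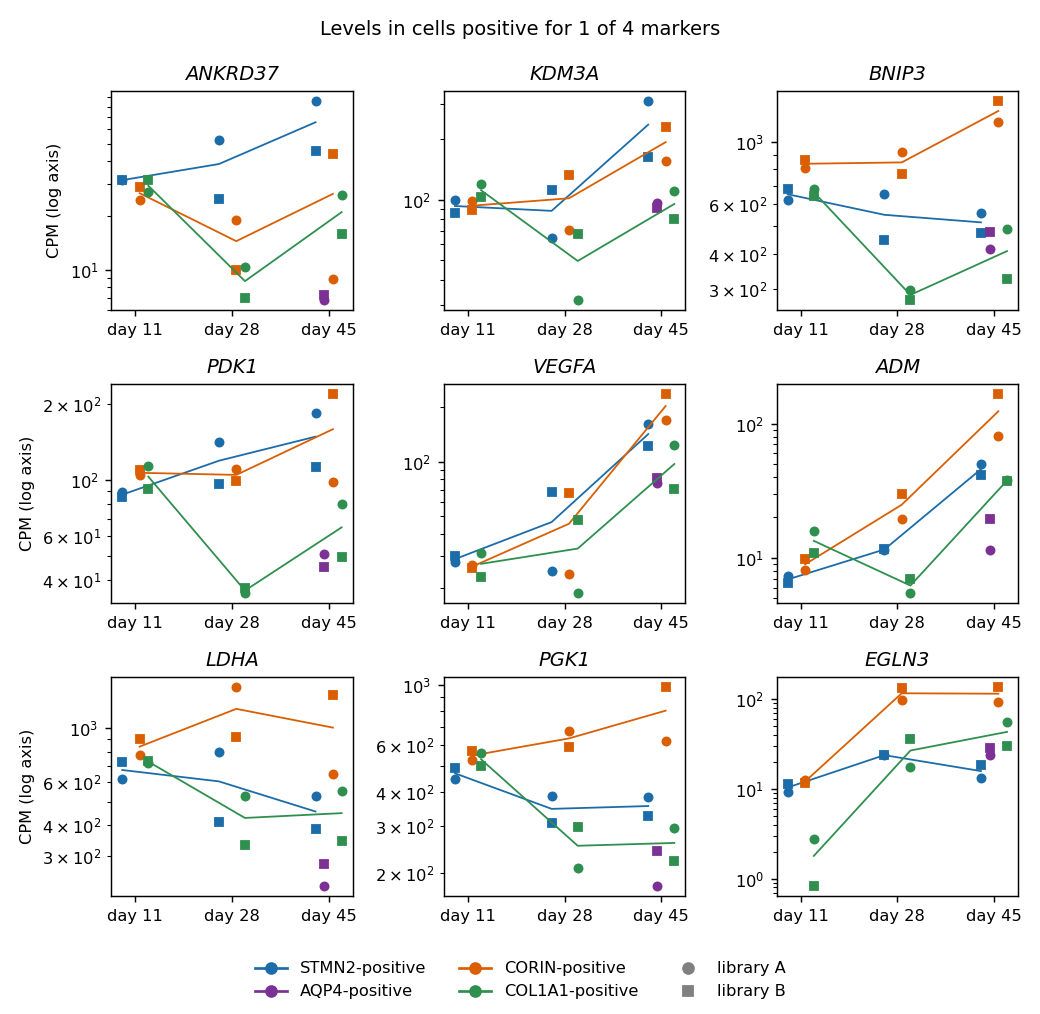
CPM of each gene (y axis, log scale) by day in STMN2-, CORIN-, COL1A1- and AQP4-positive cells. Circles are replicate A, squares replicate B, and lines join the means of the replicates. On D45 the CORIN-positive cells were highest for BNIP3 and EGLN3 in both libraries.

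In STMN2-positive cells ADM and VEGFA rose too, and markers of other cells moved in the same sums. The 5 oligodendrocyte genes were at 7.8 and 9.27 CPM on D11, 16.1 and 103 on D28, and 929 and 770 at D45, with D28 replicate B above A as for VEGFA, and the 7 neuron genes at 4575 and 4879, 6423 and 3859, and 2871 and 3415. Their part in the rise was not tested. ADM was at 7.32 and 6.46 CPM on D11, 11.4 and 11.6 on D28, and 50.4 and 41.1 at D45. Both D45 libraries stood above all the others. ADM rose by 1.88 ± 0.20 from D28 to D45 (adjusted p = 0.016) and by 2.40 ± 0.20 from D11 to D45 (adjusted p = 0.00039).

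VEGFA in these cells was at 28.0 and 30.0 CPM on D11, 24.9 and 67.9 on D28, and 162 and 122 at D45, and rose by 1.96 ± 0.37 from D11 to D45 (adjusted p = 0.0076). KDM3A was at 100 and 86.2, 64.4 and 112, and 309 and 163 CPM, with a rise of 1.01 ± 0.32 from D11 to D45 (adjusted p = 0.049). In both genes each D45 library lay above all earlier ones. From D28 to D45 neither passed, with adjusted p of 0.056 for VEGFA and 0.059 for KDM3A.

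EGLN3 was at 9.25 and 11.5 CPM on D11, 23.6 and 23.8 on D28, and 13.2 and 18.3 at D45 in STMN2-positive cells, and its rise to D28 was 0.97 ± 0.25 (adjusted p = 0.033). The other 5 genes passed no test between days: ANKRD37 ranged from 24.8 to 85.9 CPM over the 6 libraries, BNIP3 from 448 to 679, LDHA from 385 to 798, PDK1 from 85.4 to 184 and PGK1 from 307 to 490. In all, 1 of the 9 genes passed from D11 to D28 (19.1% of genes), 1 from D28 to D45 (4.39%) and 3 from D11 to D45 (29.6%). Leaving out D28 replicate A or B gave counts of 5 and 2 (29.8% and 43.5% of all genes), 4 and 6 (14.3% and 43.6%), and 7 and 7 (50.5% and 51.3%). The D45 against D28 call of ADM was lost without either D45 library (log2 fold changes 1.77 and 2.03), and with at least 3 UMIs of STMN2 required its change was 2.10. EGLN3 lost its call without any 1 library of D11 or D45, VEGFA and KDM3A lost theirs from D11 to D45 without either D11 library or D45 replicate A, where the change of KDM3A was 0.52, and the direction of VEGFA from D11 to D28 followed the D28 library kept, 0.87 without replicate A and -0.33 without replicate B. KDM3A also lost its call without a filter on cells (0.95), with the replicate block (0.99) and with cells of other markers admitted (0.77).

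In CORIN-positive cells ADM and VEGFA rose as well. ADM was at 8.04 and 9.83 CPM on D11, 19.6 and 30.1 on D28, and 80.6 and 167 at D45, with rises of 1.36 ± 0.34 (adjusted p = 0.022) and 2.22 ± 0.36 (adjusted p = 0.01) over the successive intervals. VEGFA was at 26.8 and 26.0 CPM, then 24.1 and 66.8, then 169 and 237, and rose by 2.07 ± 0.39 from D28 to D45 (adjusted p = 0.015). EGLN3 was at 12.5 and 11.6 CPM on D11, 97.6 and 134 on D28, and 91.8 and 137 at D45.

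The rise of EGLN3 in CORIN-positive cells from D11 to D28 was 3.16 ± 0.26 (adjusted p = 0.00018), and from D28 to D45 its levels overlapped (-0.12 ± 0.25, adjusted p = 0.78). In the same sums the 7 dissociation genes were at 219 and 235 CPM on D11 and 1546 and 638 on D28. The 12 genes of the integrated stress and unfolded protein responses went from 881 and 891 to 1549 and 1603 CPM. Floor plate genes went from 3497 and 2897 to 1521 and 2623 CPM. Their part in the changes was not tested. In these cells 2 of the 9 genes passed from D11 to D28 (24.5% of genes), 2 from D28 to D45 (11.8%) and 3 from D11 to D45 (22.9%). The D45 values come from 85 and 122 cells, of which the 5 cells with the most UMIs held 14.8% and 10.8% of the UMIs. The calls of ADM and VEGFA from D28 to D45 were lost without D45 replicate B (1.48 and 1.70) and when cells with other markers were admitted (0.99 and 1.05), and that of VEGFA also without D45 replicate A. The D11 to D28 call of ADM was lost without D11 replicate A (1.19), and 4 genes passed over that interval without D28 replicate A, beside 37.3% of all genes.

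In COL1A1-positive cells 6 of the 9 genes fell from D11 to D28. The result depends on which cells are admitted and on single libraries, and D11 held few such cells. BNIP3 was at 681 and 644 CPM on D11, 298 and 272 on D28, and 492 and 325 at D45. PDK1 was at 114 and 92.1, 35.6 and 37.4, and 80.1 and 49.6 CPM. PGK1 was at 557 and 502, 210 and 296, and 295 and 222 CPM. For these 3 genes both D28 libraries lay below both D11 libraries.

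From D11 to D28 PDK1 fell by 1.49 (SE 0.28, adjusted p = 0.013), ANKRD37 by 1.62 (SE 0.39, adjusted p = 0.029), BNIP3 by 1.21 (SE 0.28, adjusted p = 0.026), KDM3A by 1.25 (SE 0.31, adjusted p = 0.032), PGK1 by 1.09 (SE 0.24, adjusted p = 0.021) and ADM by 1.15 (SE 0.32, adjusted p = 0.044) on the log2 scale. EGLN3 was higher on D28, at 17.3 and 36.1 CPM against 2.75 and 0.829, but its D11 level rests on 5 and 1 UMIs. That of ADM rests on 29 and 13 UMIs, and its call was lost under 9 of 15 alternatives, with values from -1.35 to -0.49, the smallest with cells of other markers admitted. Thus 7 of the 9 genes passed, against 18.0% of genes, and the median of the 9 was -1.15 beside 0.03 for all genes. D11 held 139 and 90 of these cells, in which fibroblast markers summed to 160 and 228 CPM, against 6023 and 3724 on D28. The calls were lost without either D11 library, which leaves 1 library on that day, and the share of all genes called fell too. Without either D45 library, a day outside this comparison, 3 passed (9.75% and 9.79% of all genes). Few cells and fewer libraries cannot be told apart as the reason. With cells of other markers admitted 2 passed, PGK1 (-0.75) and EGLN3 (3.41), beside 19.1% of genes. In the same sums the 7 dissociation genes were at 412 and 357 CPM on D11 and 1738 and 1031 on D28, and the mitochondrial share was 1.53% and 1.73% and then 2.45% and 3.22%. Their part in the change was not tested.

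ADM then rose in COL1A1-positive cells, from 5.44 and 6.96 CPM on D28 to 38.0 and 37.3 on D45. The change of 2.57 ± 0.28 (adjusted p = 0.028) was the only one to pass among the 9 genes, against 1.35% of genes. VEGFA went from 18.8 and 47.5 to 123 and 70.9 CPM (1.61 ± 0.40, adjusted p = 0.075). In the same sums the 5 oligodendrocyte genes went from 18.0 and 181 to 405 and 520 CPM. The 7 dissociation genes went from 1738 and 1031 to 640 and 618 CPM. Their part in the changes of ADM and VEGFA was not tested. From D11 to D45 ADM, VEGFA and EGLN3 were higher and PGK1 was lower, 4 of 9 beside 25.4% of genes. Without any 1 library of D11 or D45 the call of ADM from D28 to D45 was lost, with values between 2.54 and 2.58, where 0.00% of all genes passed. The D11 to D45 count was 1 without either D11 library (6.10% and 7.6% of genes) or D45 replicate A (9.49%) and 2 without D45 replicate B (9.27%). Without D28 replicate B 4 genes passed from D28 to D45, beside 34.9% of genes, and without either D28 library 7 passed from D11 to D45, beside 43.0% and 39.9%.

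The groups were then compared with STMN2-positive cells of the same libraries. On D45 the AQP4-positive cells had lower levels of most of the genes. ANKRD37 was at 6.78 and 7.30 CPM in AQP4-positive cells and at 85.9 and 45.3 in STMN2-positive cells, a difference of -2.98 ± 0.42 (adjusted p = 9.3e-05). PDK1 was at 51.0 and 45.1 CPM against 184 and 113 (-1.43 ± 0.32, adjusted p = 0.0029).

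ADM, at 11.4 and 19.3 CPM against 50.4 and 41.1, differed by -1.42 ± 0.30 (adjusted p = 0.0023), KDM3A by -1.12 ± 0.24 (adjusted p = 0.0021) and VEGFA by -0.66 ± 0.22 (adjusted p = 0.029). In all of these genes both AQP4-positive values lay below both STMN2-positive values. EGLN3 alone was higher in AQP4-positive cells, at 23.9 and 28.4 CPM against 13.2 and 18.3 (0.91 ± 0.31, adjusted p = 0.03), although this was 0.12 (adjusted p = 0.61) when cells with other markers were admitted. LDHA, PGK1 and BNIP3 did not pass (-0.69, -0.60 and -0.03). In all, 6 of 9 genes passed, against 40.6% of genes. Without D45 replicate A the genes EGLN3, VEGFA and ADM lost their calls. VEGFA lost its call without either D11 library too (adjusted p = 0.053). The mitochondrial share was 3.02% and 2.94% in AQP4-positive and 1.64% and 1.84% in STMN2-positive cells, and fibroblast genes summed to 589 and 704 against 193 and 353 CPM. Their part in the differences was not tested.

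CORIN-positive cells had higher levels of BNIP3, EGLN3, ADM, PGK1 and LDHA than STMN2-positive cells on D28 and D45. On D11 BNIP3, at 808 and 866 against 624 and 679 CPM, was the only one of the 9 genes to pass (0.52 ± 0.18, adjusted p = 0.037), where 35.8% of genes did, and the call was lost under 7 of 15 alternatives: without either D11 library, by DESeq2 (0.48), with its size factors (0.48), by library totals (0.36), without a filter on cells (0.52) and with cells of other markers admitted (0.35). Without either D45 library 3 genes passed (31.7% and 31.6% of genes).

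On D28 EGLN3 was at 97.6 and 134 CPM against 23.6 and 23.8 (2.51 ± 0.28, adjusted p = 6.1e-06), ADM at 19.6 and 30.1 against 11.4 and 11.6 (1.34 ± 0.27, adjusted p = 0.00096) and PGK1 at 676 and 590 against 386 and 307 (1.11 ± 0.24, adjusted p = 0.0014). LDHA, at 1480 and 919 against 798 and 411 CPM, differed by 1.27 ± 0.30 (adjusted p = 0.0028) and BNIP3 by 0.88 ± 0.18 (adjusted p = 0.001). These 5 genes were higher in CORIN-positive cells of each library. ANKRD37 was lower, at 18.9 and 10.0 against 52.4 and 24.8 CPM (-1.15 ± 0.33, adjusted p = 0.0098). The 6 calls stood beside 51.5% of all genes, and dissociation genes summed to 1546 and 638 CPM in the CORIN-positive cells against 680 and 559 in the STMN2-positive ones. Their part in these differences was not tested. The call of LDHA was lost without D28 replicate B (1.05, adjusted p = 0.054).

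On D45 EGLN3 was at 91.8 and 137 CPM against 13.2 and 18.3 (3.07 ± 0.32, adjusted p = 1.6e-05) and BNIP3 at 1180 and 1400 against 560 and 474 (1.52 ± 0.19, adjusted p = 5.6e-05). PGK1 differed by 1.36 ± 0.24 (adjusted p = 0.0012), ADM by 1.60 ± 0.29 (adjusted p = 0.0012), LDHA by 1.34 ± 0.31 (adjusted p = 0.0062) and VEGFA by 0.75 ± 0.23 (adjusted p = 0.031). The median of the 9 genes was 1.34, beside -0.07 for all genes, and 6 passed, against 24.2% of genes. Without D45 replicate B the differences of LDHA, PGK1, ADM and VEGFA shrank to 0.40, 0.78, 0.77 and 0.16 and lost their calls, whereas EGLN3 (2.89) and BNIP3 (1.17) kept theirs, and VEGFA lost its call without either D11 library too (0.72). With cells of other markers admitted, LDHA, PGK1 and ADM lost their calls (0.36, 0.39 and 0.41) and VEGFA turned to -0.16 (adjusted p = 0.51), while EGLN3 and BNIP3 were at 1.48 and 0.50. When every cell was given equal weight, the mean of BNIP3 on D45 was 831 and 1027 CPM in CORIN-positive cells against 461 and 420 in STMN2-positive cells. That of LDHA was 475 and 1005 CPM against 438 and 342, and that of VEGFA 160 and 209 against 153 and 117, so in replicate A both genes were close between the groups. After thinning to 2000 UMIs, LDHA was found in 39.3% of the CORIN-positive and 47.7% of the STMN2-positive cells of replicate A, and in 75.0% and 37.7% of those of replicate B. BNIP3 was found in 49.2% and 46.7% of these cells in replicate A and in 73.9% and 42.0% in replicate B, so in replicate A the share of cells hardly differed. The CORIN-positive cells were deeper, with a median of 9143 and 10738.5 UMIs against 2733 and 3591.5, and the part of depth in the sums was not tested.

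**Figure D4:**
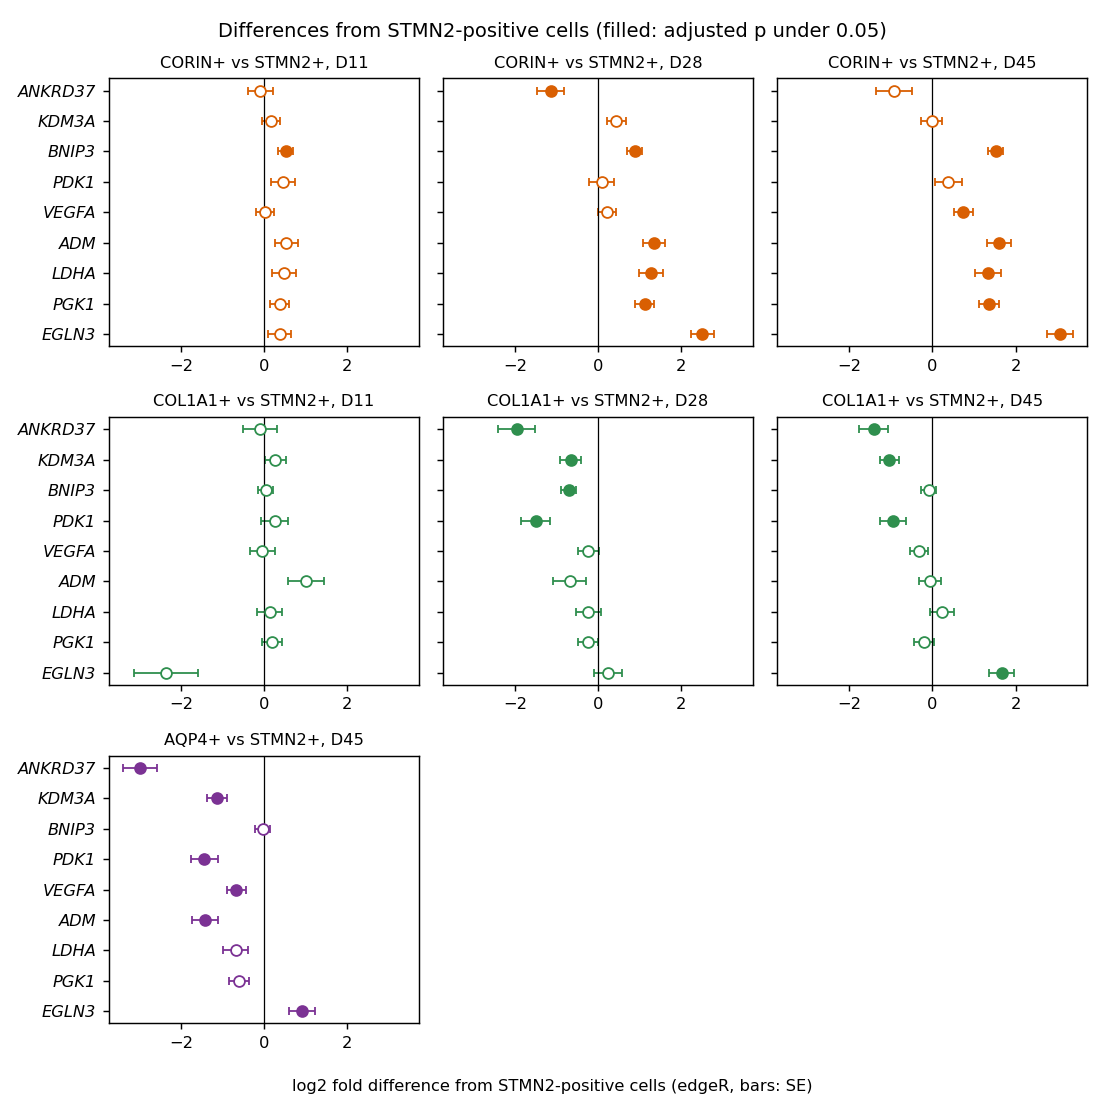
Log2 difference of each gene from STMN2-positive cells of the same day (x axis) in CORIN-, COL1A1- and AQP4-positive cells, from edgeR, with bars of 1 SE and filled points for an adjusted p under 0.05. EGLN3 moved from 0.38 (D11) to 2.51 (D28) and 3.07 (D45) in CORIN-positive cells, while ANKRD37 lay to the left of 0 in every panel.

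The difference between CORIN- and STMN2-positive cells was itself compared between days. For EGLN3 it grew by 2.13 ± 0.39 from D11 to D28 (adjusted p = 0.0025), the only one of the 9 genes to pass, where 16.5% of genes passed. The other 8 did not pass, with the lowest adjusted p for ANKRD37 (-1.06, adjusted p = 0.13) and PGK1 (0.74, adjusted p = 0.15). The call of EGLN3 was lost without D11 replicate B, where the difference was 1.93. With cells of other markers admitted the difference was 1.00 (adjusted p = 0.014). From D28 to D45 the edgeR test called 0 of 9, against 3.86% of genes, with 1 at an unadjusted p under 0.05 and 0 by DESeq2.

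COL1A1-positive cells had lower levels of ANKRD37, PDK1 and KDM3A than STMN2-positive cells on D28 and D45. Their mitochondrial share was 2.45% and 3.22% against 1.67% and 1.53% on D28, and 3.17% and 2.94% against 1.64% and 1.84% on D45. Dissociation genes summed to 1738 and 1031 against 680 and 559 CPM on D28, and to 640 and 618 against 743 and 511 on D45. The part of these in the differences was not tested. On D11 the edgeR test called 0 of 9 genes, against 14.4% of all genes, with 2 at an unadjusted p under 0.05 and 1 by DESeq2. On D28 ANKRD37, at 10.4 and 6.96 against 52.4 and 24.8 CPM, was lower by 1.97 (SE 0.44, adjusted p = 0.0024) on the log2 scale, and PDK1, at 35.6 and 37.4 against 142 and 96.5 CPM, by 1.51 (SE 0.34, adjusted p = 0.0026). With BNIP3 (-0.72 ± 0.18, adjusted p = 0.0061) and KDM3A (-0.66 ± 0.25, adjusted p = 0.047), 4 of 9 passed, all lower, against 45.5% of genes in either direction. D28 replicate A held 663 COL1A1-positive cells against 109 in replicate B. Without replicate A the 4 calls were lost, and the share of all genes called fell too. KDM3A also lost its call without any 1 of the other D11 and D28 libraries.

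On D45 ANKRD37 (-1.41 ± 0.35, adjusted p = 0.0053), KDM3A (-1.04 ± 0.24, adjusted p = 0.0029) and PDK1 (-0.96 ± 0.31, adjusted p = 0.023) were lower in COL1A1-positive cells and EGLN3, at 56.0 and 30.1 against 13.2 and 18.3 CPM, was higher (1.67 ± 0.30, adjusted p = 0.00048). These 4 calls, against 42.7% of genes, were made without any 1 of the libraries too. The change of the difference from D28 to D45 passed for 0 of 9 genes by edgeR, against 2.72% of genes, with 2 at an unadjusted p under 0.05 and 0 by DESeq2.

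Other genes of the same pathways were read from set lists. Of 19 further genes of glycolysis and lactate transport, 0 rose and 5 fell from D11 to D28 in all cells, where 23.1% of all genes passed, with a median of -0.41. SLC16A3, the lactate exporter, changed by -1.67, LDHB, the heart-type lactate dehydrogenase, by -1.49, ENO1, an enolase, by -1.22 and HK2, a hexokinase, by -0.93. From D28 to D45 only SLC16A3 passed (-1.36; 9.40% of genes), and from D11 to D45 1 rose and 9 fell, against 34.6% of genes. Scaled by library totals, 1 rose and 3 fell from D11 to D28, and 2 rose and 7 fell from D11 to D45. In all cells the 19 genes summed to 9980 and 10845 CPM on D11 and 7017 and 6508 on D45. In CORIN-positive cells they summed to 9774 and 10888 CPM on D11 and 14731 and 19282 on D45. These sums were not tested.

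In CORIN-positive against STMN2-positive cells 11 glycolysis genes were higher and 3 lower on D28, beside 51.5% of all genes called, and 7 were higher and 1 lower on D45, beside 24.2%. Scaled by library totals, 8 were higher and 6 lower on D28, and 6 higher and 2 lower on D45. On D28 SLC16A3 (1.81) and GAPDH (1.30) were higher and PFKFB3 (-1.26) and ENO2 (-1.11), the neuronal enolase, lower. On D45 SLC16A3 (3.76), GAPDH (2.24), the aldolase ALDOA (1.38) and the isomerase GPI (1.30) were the furthest apart. In AQP4-positive cells 2 were higher and 6 lower (40.6% of genes), with PFKP at -1.60, PFKFB3 at -1.36, HK1 at -1.34 and HK2 at -1.22, and in COL1A1-positive cells 0 were higher and 3 lower on D45 (42.7% of genes). By library totals these counts were 1 and 8 in AQP4-positive and 0 and 10 in COL1A1-positive cells.

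Of 20 other HIF target genes, 1 rose from D11 to D28 (STC2, 0.67), where 23.1% of genes passed, and from D28 to D45, where 9.40% did, 3 rose, among them BHLHE40 (1.67) and NDRG1 (0.88), and 2 fell, with HILPDA at -1.37. By library totals 3 rose and 0 fell over the first interval, and 4 rose and 1 fell over the second. CORIN-positive cells exceeded STMN2-positive cells in 8 of the 20 on D28, beside 51.5% of all genes called, and in 12 on D45, beside 24.2%, and were lower in 0 on either day. By library totals 6 were higher and 1 lower on D28, and 8 higher and 0 lower on D45. The largest differences on D45 were those of STC2, a secreted glycoprotein (2.81), P4HA2, a collagen prolyl hydroxylase (2.28), ANGPTL4 (2.13) and PPP1R3C, a glycogen regulator (2.08). In COL1A1-positive cells on D45 8 were higher and 3 lower, among them ANGPTL4 (4.79), LOX (3.19) and TXNIP (2.53), of which LOX is also a gene of mesenchymal cells. In AQP4-positive cells 4 were higher and 4 lower. By library totals 7 were higher and 7 lower in COL1A1-positive cells and 3 higher and 8 lower in AQP4-positive cells. Of all genes, 42.7% and 40.6% were called in these comparisons with TMM, and 48.7% and 42.9% by library totals.

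Of 11 genes that sense oxygen or carry its signal, HIF3A (2.31) and VHL (0.69) rose from D11 to D28, beside 23.1% of all genes called, and EPAS1 (2.65) from D28 to D45, beside 9.40%. HIF1A, the main alpha subunit, was at 129 and 126 CPM on D11, 127 and 160 on D28, and 216 and 148 at D45, and passed no test between days in all cells. It was lower in AQP4-positive than in STMN2-positive cells on D45 (-0.81 ± 0.17, adjusted p = 0.0018). EPAS1, which encodes HIF-2 alpha, stayed near 0, with 0.317 to 0.627 CPM up to D28 and 3.13 and 5.26 on D45. HIF activity is set largely by protein stability, which transcripts do not measure.

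Of 18 genes of oxidative metabolism, 1 fell from D11 to D28, where 23.1% of all genes passed. Most of them belong to the citric acid cycle and respiratory chain, and PDHA1, PDHB, MPC2 and PPARGC1A were also on the list. From D28 to D45 0 passed by edgeR, against 9.40% of genes, with 6 at an unadjusted p under 0.05 and 4 by DESeq2. In the same list 9 fell and 0 rose from D11 to D45, against 34.6% of all genes, with COX4I1, a subunit of cytochrome c oxidase, at -1.85 and ATP5F1A, of ATP synthase, at -1.02. Scaled by library totals, which moved the median of all genes up by 0.41 over that interval, 3 fell and 1 rose. Of 12 genes of the integrated stress and unfolded protein responses, 2 rose from D11 to D28 (XBP1, 1.26, and DNAJB9, 0.78; 23.1% of genes) and CHAC1 fell from D28 to D45 (-1.83; 9.40% of genes). Of the 7 dissociation and activity genes, 4 rose from D11 to D28, among them EGR1 (3.84) and FOS (3.01), and EGR1 (-2.94) and ATF3 (-0.92) fell from D28 to D45, beside the same 23.1% and 9.40% of all genes.

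The counts of these 6 lists also depend on single libraries. In all cells 0 genes of any of them passed from D28 to D45 without either D45 library, where 0.00% and 0.280% of all genes passed, while without D28 replicate B, where 43.7% did, 2 glycolysis genes rose and 7 fell and 7 HIF targets rose and 6 fell. From D11 to D45 the leave-outs moved the counts of glycolysis and of oxidative metabolism, and also the share of all genes called. For CORIN- against STMN2-positive cells on D45 they gave 4 to 10 higher and 0 to 1 lower for glycolysis and 4 to 12 higher and 0 lower for HIF targets, with 4 in both lists without D45 replicate B (9.74% of genes).

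The genes whose levels ran most like the mean of the 9 were sought over 20 sums of 1 marker group in 1 library each. Levels were log2(CPM + 1), centred and divided by the SD for each gene before the mean was taken. The 5 closest were GPI (Pearson r = 0.948), the hydroxylase EGLN1 (0.918), GBE1 (0.901), TFRC (0.899) and STC2 (0.890). The 9 genes themselves ranged from 0.397 for EGLN3 to 0.888 for PDK1, but each is part of that mean, which by itself raises its r. The 20 sums share libraries, so these values only describe the likeness.

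Within libraries, the levels of the genes were then set side by side in cells with and without a UMI of another of them. RNA that is free in the droplets can also give a UMI. Its amount was not estimated in any library, and it and the levels of the genes may differ between days, so the ratios describe UMIs and not expressing cells. For each ordered pair among the 9 genes, the CPM of the first gene in cells with a UMI of the second was divided by that in cells without. Deeper cells show more genes, so every cell was thinned to 2000 UMIs at random and shallower cells (1665 to 9646 per library) were left out. The ratio then had a median over the 72 pairs of 1.44 and 1.36 on D11, 2.15 and 1.98 on D28, and 2.93 and 3.72 at D45. The days did not overlap, and the medians without thinning were 1.35 and 1.22, 2.19 and 2.23, and 3.25 and 3.48.

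In the thinned STMN2-positive cells the medians were 1.57 and 1.39 on D11, 2.24 and 2.27 on D28, and 2.69 and 3.46 at D45. In COL1A1-positive cells they were 1.96 and 1.71, 2.46 and 1.89, and 3.62 and 5.29, and in CORIN-positive cells 1.39 and 1.34, 1.70 and 1.5, and 2.76 and 1.85. AQP4-positive cells had 3.04 and 3.47 on D45. Pairs with too few UMIs gave no ratio, so these medians rest on 68 to 72 pairs in STMN2-, 29 to 72 in COL1A1-, 42 to 71 in CORIN- and 48 to 59 in AQP4-positive cells, and not on the same pairs on each day. The days did not overlap in STMN2- and CORIN-positive cells, whereas in COL1A1-positive cells the lower D28 value lay under the higher D11 value. Over only the pairs with a ratio in each of the 6 libraries, the medians were 1.74 and 1.49, 2.37 and 2.13, and 3.13 and 4.48 in COL1A1-positive cells (22 pairs), and 1.33 and 1.32, 1.59 and 1.5, and 2.58 and 1.82 in CORIN-positive cells (39 pairs), without overlap between days in either. Of the reference genes, GAPDH, itself glycolytic, went with the 9 genes in all cells (1.30 and 1.2 on D11, 2.75 and 2.93 on D45), while ACTB, a cytoskeletal actin, ran below 1 (0.82 and 0.84 on D11, 0.60 and 0.60 on D45).

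As an example, thinned STMN2-positive cells of D45 with a VEGFA UMI (1546 and 993 cells) had ADM at 139 and 135 CPM, against 34.1 and 22.4 in those without. BNIP3 in the same cells was at 1101 and 1180 CPM against 411 and 343, and PDK1 at 358 and 298 against 152 and 83.1. ACTB was lower in the cells with VEGFA, at 436 and 447 CPM against 734 and 856. On D11 the same split gave BNIP3 at 891 and 805 CPM against 655 and 729. Cells of 1 library are not replicates, and these ratios carry no test.

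**Figure D5:**
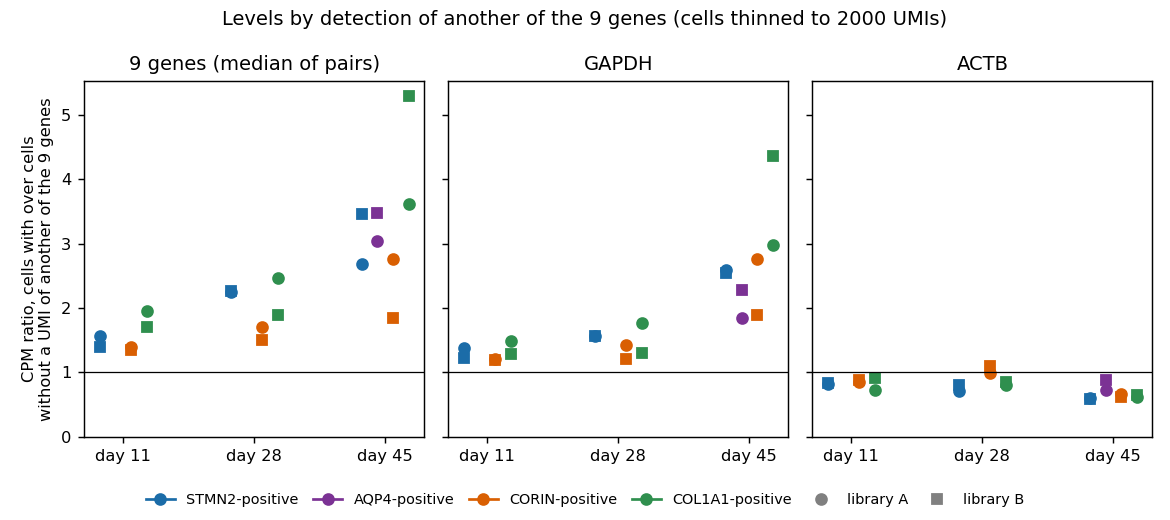
Ratio of CPM in cells with over cells without a UMI of another of the 9 genes (y axis), in cells thinned to 2000 UMIs, by day (x axis) and marker group, as the median over pairs of the 9 genes (left) and for GAPDH (middle) and ACTB (right). Circles are replicate A, squares replicate B, and the line marks a ratio of 1. In STMN2-positive cells the left panel runs from 1.57 and 1.39 on D11 to 2.69 and 3.46 on D45.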

How the data were processed

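Single cells of pMLOs were captured in droplets (10x Genomics kit GEM-X 3', v4), a method that counts 3' ends, so UMI counts are not proportional to gene length. The authors aligned reads to Sscrofa11.1 with Cell Ranger 8.0.1 (matrix header) and deposited UMI counts per gene and barcode, not normalized; Seurat 4.3.0 is named in the submitters' processing notes for later steps. Cells with fewer than 200 or more than 7000 genes or over 10% mitochondrial UMIs (37 genes, 13 of them named in the files) were removed. Counts were summed per library over all cells or over marker groups of at least 20 cells. No doublet caller was run, and cells with more than 1 of the 4 markers were left out of the groups. Each marker group was compared between days in a fit of its own. Sums were tested with edgeR 4.0.16 in R 4.3.3 (TMM scaling, genes filtered by filterByExpr, quasi-likelihood test, Benjamini-Hochberg adjustment over all genes tested, threshold 0.05). All libraries entered each fit, and comparisons between groups held the library as a block. All 9 genes passed the filter in every comparison. Each group had 2 libraries, for which an exact permutation test cannot go below p = 0.333, so none was run. The study calls the libraries of a day biological duplicates, and p-values measure the spread between these. CPM are UMIs per 1000000 UMIs of the summed cells.

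All 9 genes are named whether or not they passed, with HIF1A, EPAS1 and GAPDH, up to 4 genes of a pathway list with the largest called changes, and the 5 genes most like the mean. The genes and lists were chosen with earlier results of these data known. Of the pathway lists SLC2A3, EGLN2, ATP5F1B, MPC1 and HSPA1A were not found by symbol and were not used here. On simulated counts with 200 changed genes, edgeR recovered 32% of genes changed 2-fold and 80% of those changed 4-fold for D45 against D28 in all cells (21926 genes), 30% and 73% in STMN2- (19447 genes), 21% and 68% in CORIN- (15356 genes) and 19% and 88% in COL1A1-positive cells (12246 genes), and 37% and 71% for CORIN- against STMN2-positive cells on D45 (15668 genes). No other gene differed in the simulated counts, whereas 9.40% of all genes were called for D45 against D28 in all cells. The spread that the quasi-likelihood test adds for each gene was not simulated. These percentages therefore need not hold for the measured comparisons. Alternatives were DESeq2 1.42.0, its size factors, no filter on low counts, other cell filters and group definitions, leave-one-out of the libraries, a block for the replicate letter and, chosen after seeing the data, scaling by library totals. Thinning to 2000 UMIs (python 3.11.15) and the restriction to pairs with a ratio in each library were also chosen after seeing the data. Pairs in which a gene had fewer than 3 UMIs on either side gave no ratio. No columns of other samples were used (0). For 1 gene on the HIF target list, values are not reported here.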

Additional observations from a re-analysis of the deposited data

Results flagged for a closer look

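One difference between groups met the rule for a closer look. The change of EGLN3 from D11 to D28 was larger in CORIN-positive than in STMN2-positive cells by 2.13 ± 0.39 on the log2 scale (edgeR, adjusted p = 0.0025). EGLN3 went from 12.5 and 11.6 CPM to 97.6 and 134 in CORIN-positive cells and from 9.25 and 11.5 to 23.6 and 23.8 in STMN2-positive cells. In both groups both D28 values lay above both D11 values. The difference in change was 1.95 with at least 3 UMIs required for each marker and 1.00 with cells of other markers admitted. It was 1.93 without D11 replicate B, where the call was lost. In the same sums the 7 dissociation genes went from 219 and 235 to 1546 and 638 CPM in CORIN-positive cells. In STMN2-positive cells they went from 291 and 308 to 680 and 559 CPM. Their part in the difference was not tested. No outlier was looked for, since each day has 2 libraries.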

How the results depend on the processing

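Of 198 results for single genes 60 passed the threshold, and 22 of these passed under all 16 alternatives that gave a value. Over the alternatives 2687 of 2961 values kept their side of the threshold, 131 lost and 139 gained a call, and 4 reversed with a call on either side; 127 changes of sign without any call are not counted there. The replicate letter did not pair the libraries: deviations from the day means correlated at -0.32, 0.048 and -0.20 between days over 22192 genes. A fit with the replicate block called 0 genes in STMN2-positive cells from D11 to D28 (EGLN3, adjusted p = 0.054), and lost 3 of 32 calls in all. The counts of called genes also moved as follows. DESeq2 gave 2 in all cells from D11 to D28 (29.7% of all genes) and 5 from D28 to D45 (19.5%). From D28 to D45 it gave 3 in STMN2- (13.8%) and 2 in COL1A1-positive cells (5.36%). On D11 it gave 1 for COL1A1- (17.0%) and 0 for CORIN- against STMN2-positive cells (35.1%). That CORIN comparison of D11 also gave 0 with DESeq2 size factors (35.2%), with library totals (35.6%) and without a filter on cells (33.6%). It gave 0 with cells of other markers admitted too, where the share of all genes was lower than these. It gave 3 without a filter on low counts (23.0%) and 5 with at least 3 UMIs (44.9%). Library totals gave 2 in STMN2-positive cells from D11 to D28 (20.3%). No filter on cells gave 1 in CORIN-positive cells over that interval, beside a smaller share of all genes than the 24.5% of the main fit. At least 3 UMIs gave 2 in STMN2-positive cells from D11 to D28 (14.4%) and 0 in COL1A1-positive cells from D28 to D45 (0.0238%). It gave 3 for the change of the CORIN difference from D11 to D28 (16.6%). Admitting cells of other markers gave 2 in STMN2-positive cells over either interval (16.1% and 6.15%). It gave 0 in CORIN-positive cells from D28 to D45 (19.1%, against 11.8% in the main fit). In COL1A1-positive cells it gave 2 over either interval (19.1% and 6.85%). It gave 1 for COL1A1- against STMN2-positive cells on D11 (14.9%). For the changes of the CORIN and COL1A1 differences from D28 to D45 it gave 1 each (5.98% and 0.585%). No filter on low counts, which tests more genes, gave 3 in STMN2-positive cells from D28 to D45 (7.81%, against 4.39% in the main fit). In COL1A1-positive cells it gave 4 over that interval (8.75%, against 1.35%). It gave 2 for COL1A1- against STMN2-positive cells on D11 (10.2%, against 14.4%). For the changes of the CORIN and COL1A1 differences from D28 to D45 it gave 1 and 2 (4.77% and 4.39%). For the change of the CORIN difference from D11 to D28 it gave 5, beside a smaller share of all genes than the 16.5% of the main fit. Where no cause is named it was not tested.

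Leaving out 1 library gave 1 to 7, 0 to 7 and 1 to 6 called genes in all cells (D28 against D11, D45 against D28, D45 against D11), 0 to 5, 0 to 6 and 1 to 7 in STMN2-, 1 to 4, 0 to 3 and 3 to 4 in CORIN-, and 0 to 7, 0 to 4 and 1 to 7 in COL1A1-positive cells. Against STMN2-positive cells it gave 3 to 8 for AQP4, 0 to 3, 5 to 7 and 5 to 8 for CORIN and 0 to 1, 0 to 4 and 4 to 4 for COL1A1 (D11, D28, D45), and 0 to 4, 0 to 2 and 0 to 1 for the changes of the CORIN difference to D28, of it to D45, and of the COL1A1 difference. The share of all genes called moved with these counts, for D45 against D28 in all cells from 0.00% without D45 replicate A to 43.7% without D28 replicate B. A lone library left was assumed to vary like the others. Reversed values were those for CORIN- against STMN2-positive cells on D45, KDM3A at 0.67 without D45 replicate A (-0.89 without B), PDK1 at -0.81 without D45 replicate B (1.13 without A) and VEGFA at -0.16 with cells of other markers admitted, and the change of the ANKRD37 difference to D45 at -2.02 without D45 replicate B (1.28 without A). At least 3 UMIs left too few cells for the COL1A1 comparisons of D11 and the CORIN comparisons of D45. AQP4-positive cells without the other markers (0, 1, 16 and 9 before D45) were too few for any other comparison. With cells of other markers admitted, AQP4-positive cells numbered 127 and 63 on D28, and comparisons of them on that day are not described here. The smallest sums, 85 to 139 cells, limit what could be detected in CORIN-positive cells on D45 and in COL1A1-positive cells on D11 and in D28 replicate B.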
